A study of Mus musculus with 8 samples.

Results

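Purkinje cell and Bergmann glia genes were followed across the 8 arrays of a study of rosemary extract (RE) in mouse brain. The set was given as 8 genes, Pcp2, Ppp1r17, Car8, Slc1a6, Calb1, Itpr1, Rora and Gdf10, and each gene was represented by the array row with the highest mean over the 8 arrays. The platform annotation named a row for 7 of the 8 genes, among 22206 rows and 19505 named genes in all; Itpr1 was not analysed here. Male mice of the outbred ICR strain, bought at 8 weeks of age and acclimatized for 1 week, received water, or RE dissolved in it, by mouth for 7 days. The tail suspension test (TST) is a brief stressor in which a mouse cannot escape from hanging head down. There were 4 groups of 2 arrays: water without TST and, all after TST, water, low-dose RE and high-dose RE. The low dose was 10 mg/kg. For the high dose the sample titles give 100 mg/kg but the source names 50 mg/kg, so only the word is used below. Water without TST is marked as positive and water with TST as negative control in a further field; the groups here follow the titles. The labels assign 7 mice to a group and do not say whether its 2 RNA samples were single mice or pools, so a p-value measures only the spread between these samples. The members were chosen by their log2 signals on these 8 arrays, as seen in earlier results, so their levels, gaps and group differences are given as a description.

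Purkinje cells are the large GABA-releasing neurons that carry the output of the cerebellar cortex. They receive the parallel fibres of granule cells and the climbing fibres of the inferior olive, and they answer glutamate with large calcium signals. Bergmann glia are astrocytes of the same cortical layer, and their processes wrap the synapses on Purkinje cell dendrites. The cerebellum lies outside the limbic system, which is the tissue named in the labels, and outside the hippocampus, which another field names.

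The array water with TST replicate 2 correlated with the other 7 arrays at 0.967 to 0.978 across rows, while the other 7 correlated with each other at 0.983 to 0.993. The lists included 13 measured genes of hippocampal and cortical excitatory neurons. On water with TST replicate 2, 11 of them were over 1 log2 unit lower than on replicate 1. Of all rows, 6.65% were as much lower there. Nrgn, a postsynaptic calmodulin-binding protein of forebrain neurons, was at 10.54 there and between 14.11 and 15.37 elsewhere. Prox1, a transcription factor of hippocampal granule cells picked after its values were seen, was instead highest there, at 11.24 against 9.44 to 11.04. Values are log2 signals, in which 1 unit is a doubling on the deposited scale. The deposited values run from 2.76 to 19.79 and 1359 exceed 16, the limit of a 16-bit scanner, so the size of a log2 unit in measured brightness is not known. No detection calls come with them, and in bulk tissue fewer cells of a type and less RNA per cell cannot be told apart.

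Pcp2 and Ppp1r17, the members classed here as cerebellum-restricted, had the widest swings. Pcp2 encodes a regulator of inhibitory G proteins and is a classic Purkinje cell marker. Its signal was 12.87 and 8.84 in water without TST (replicates 1 and 2), 7.71 and 15.29 in water with TST, 6.99 and 7.44 in low-dose RE, and 8.64 and 7.64 in high-dose RE. Water with TST replicate 2 was thus the highest array and water without TST replicate 1 the next, and both lay apart from the remaining 6, which ranged from 6.99 to 8.84. The group mean was 11.5 ± 5.36 (SD, n = 2) in water with TST and 7.215 ± 0.318 (SD, n = 2) in low-dose RE. Ppp1r17 encodes G-substrate, a phosphatase inhibitor of Purkinje cells that is phosphorylated by the cyclic GMP-dependent protein kinase. It was at 9.51 and 6.32 in water without TST, 4.99 and 11.97 in water with TST, 4.84 and 5.16 in low-dose RE, and 6.23 and 5.15 in high-dose RE. The same 2 arrays were highest, and the remaining 6 spanned 1.48 log2 units against 7.13 over all 8.

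Car8 and Slc1a6 are strongly enriched in Purkinje cells. Car8 encodes a carbonic anhydrase relative without enzyme activity that binds the inositol trisphosphate receptor. It was at 13.88 and 10.03 in water without TST, 9.64 and 16.03 in water with TST, 9.19 and 9.34 in low-dose RE, and 9.70 and 9.45 in high-dose RE. Slc1a6 encodes EAAT4, the glutamate transporter of Purkinje cell spines. Its signal was 9.49 and 7.86 in water without TST, 7.64 and 11.81 in water with TST, 7.48 and 6.69 in low-dose RE, and 7.68 and 7.10 in high-dose RE. Both genes had the order of Pcp2 and Ppp1r17: water with TST replicate 2, water without TST replicate 1, water without TST replicate 2 and then high-dose RE replicate 1. That order of the top 4 arrays was found in 4 of the 7 members and in 0.243% of all rows. It was read from these members' own values, so the 2 shares are a description only. The fourth place rests on 9.70 against 9.64 for Car8 and 7.68 against 7.64 for Slc1a6, and is wider for Pcp2 and Ppp1r17.

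Gdf10, a secreted growth factor of the bone morphogenetic protein family that marks Bergmann glia, was at 9.10 and 6.97 in water without TST and 7.08 and 10.57 in water with TST. It was at 6.89 and 6.88 in low-dose RE and 6.60 and 7.01 in high-dose RE. The glial gene was thus highest on the same 2 arrays as the neuronal ones, and its remaining 6 arrays spanned only 0.48 log2 units. Within them the order differed from that of the Purkinje cell genes, with high-dose RE replicate 1 lowest.

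Calb1 and Rora are also expressed outside the cerebellum, and their swings were smaller. Calb1 encodes the calcium buffer calbindin, abundant in Purkinje cells and also present in hippocampal granule cells and cortical and striatal neurons. Its signal was 13.96 and 13.19 in water without TST, 12.79 and 15.20 in water with TST, 12.39 and 12.38 in low-dose RE, and 12.45 and 12.57 in high-dose RE. The 4 RE arrays lay within 0.19 log2 units of each other and below the 4 water arrays, with 12.57 against 12.79 the closest values. No other member was so separated, and the share of all rows that were was not counted. The weaker condition, 4 RE arrays below the arrays of water without TST alone, held for 6.21% of all rows. Rora encodes a nuclear receptor needed for Purkinje cell development and is also expressed in thalamus and cortex. It was at 13.15 and 12.30 in water without TST, 12.94 and 14.03 in water with TST, 13.56 and 13.17 in low-dose RE, and 12.95 and 12.99 in high-dose RE. Water with TST replicate 2 was again the highest array for Rora, but both low-dose RE arrays came before water without TST replicate 1. Rora had 2 further rows, and all 3 were highest on water with TST replicate 2. The gap between the 2 arrays of that group was 1.09 in the row used and 0.72 and 2.30 in the others.

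**Figure D1:**
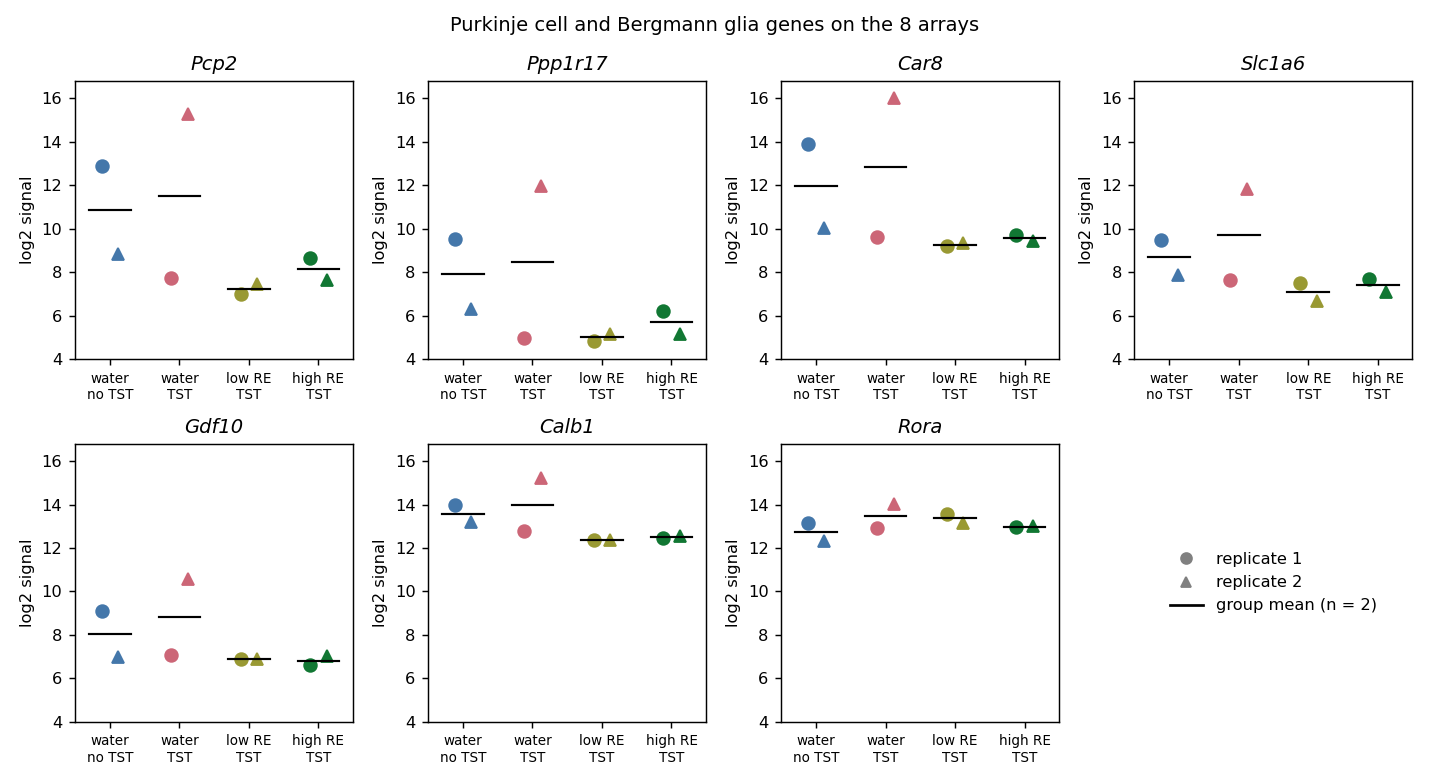
Log2 signal of the 7 measured genes (vertical axis) on the 2 arrays of each of the 4 groups, with circles for replicate 1, triangles for replicate 2 and lines for the group mean (n = 2). Water with TST replicate 2 is the highest point in every panel, at 15.29 for Pcp2, and water without TST replicate 1 the next in all but Rora.

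Sequences are shown for the start of Pcp2, the member with the widest swing, and of Slc1a6 and Gdf10, a neuronal and a glial member that were high on the same arrays. Each is the 250 bases before a RefSeq transcription start (build GRCm38.p6), written 5′ to 3′ on the gene's strand. Matches to AGGTCA, the half-site recognized by nuclear receptors such as the Rora product, and to TATAAA, searched on both strands, are in capitals. RefSeq windows matched 4 of the 8 genes, Pcp2, Slc1a6, Gdf10 and Rora.
Pcp2, chr8:3625548-3625797, minus strand: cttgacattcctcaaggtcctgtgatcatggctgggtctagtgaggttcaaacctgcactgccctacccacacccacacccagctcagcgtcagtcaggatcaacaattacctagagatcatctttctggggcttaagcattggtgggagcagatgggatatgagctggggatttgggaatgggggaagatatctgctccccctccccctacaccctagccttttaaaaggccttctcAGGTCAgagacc
Slc1a6, chr10:78780246-78780495, plus strand: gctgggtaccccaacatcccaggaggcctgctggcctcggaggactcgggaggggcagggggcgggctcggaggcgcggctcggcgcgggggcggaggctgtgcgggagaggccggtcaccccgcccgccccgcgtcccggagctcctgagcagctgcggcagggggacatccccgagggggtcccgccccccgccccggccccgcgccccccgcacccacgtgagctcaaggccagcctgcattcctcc
Gdf10, chr14:33923337-33923586, plus strand: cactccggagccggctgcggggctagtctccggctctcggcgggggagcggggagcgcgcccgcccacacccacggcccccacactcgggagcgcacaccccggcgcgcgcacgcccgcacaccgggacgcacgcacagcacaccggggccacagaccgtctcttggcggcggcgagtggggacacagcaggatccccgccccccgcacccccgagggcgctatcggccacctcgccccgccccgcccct
The Pcp2 window held AGGTCA ending 6 bases before the start, and the windows of Slc1a6, Gdf10 and Rora held neither motif. Of the 4 windows of Pcp2, one per annotated start, 3 held AGGTCA, and 2 of these overlap and share 1 match. The remaining Pcp2 window held TATAAA on the other strand, 108 bases before its start. The letters AGGTCA were found in 14.0% and TATAAA in 12.4% of all 32851 windows of this length. GC content was 52.8% in the Pcp2 window and 78.8% in those of Slc1a6 and Gdf10. A match is a description of the letters only.

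In water with TST, the gap between the 2 arrays was widest for the members classed as cerebellum-restricted and narrowest for Calb1 and Rora. Replicate 2 exceeded replicate 1 by 7.58 for Pcp2, 6.98 for Ppp1r17 and 6.39 for Car8. The gap was 4.17 for Slc1a6, 3.49 for Gdf10, 2.41 for Calb1 and 1.09 for Rora. All 7 members thus exceeded 1 log2 unit, as did 6.07% of all rows in that direction. In water without TST, replicate 1 exceeded replicate 2 by 4.03 for Pcp2, 3.85 for Car8, 3.19 for Ppp1r17, 2.13 for Gdf10, 1.63 for Slc1a6, 0.85 for Rora and 0.77 for Calb1. In that group Car8 thus stood above Ppp1r17 and Gdf10 above Slc1a6. Here 5 of 7 members exceeded 1 log2 unit, against 1.94% of all rows. Water with TST replicate 2 was the highest of the 8 arrays for all 7 members and for 23.5% of all rows, and water without TST replicate 1 came second to it for 6 members and 6.19% of rows. The second gap was a share of the first that ran from 0.32 for Calb1 to 0.61 for Gdf10 among the members other than Rora, for which it was 0.78. Low-dose RE replicates differed by at most 0.79 (Slc1a6). High-dose RE replicate 1 exceeded replicate 2 by 1.08 for Ppp1r17 and 1.00 for Pcp2, and the other 5 members differed by at most 0.58 there; 0.919% of all rows exceeded 1 log2 unit in that direction, as Ppp1r17 did. With 1 array on each side these gaps have no test.

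**Figure D2:**
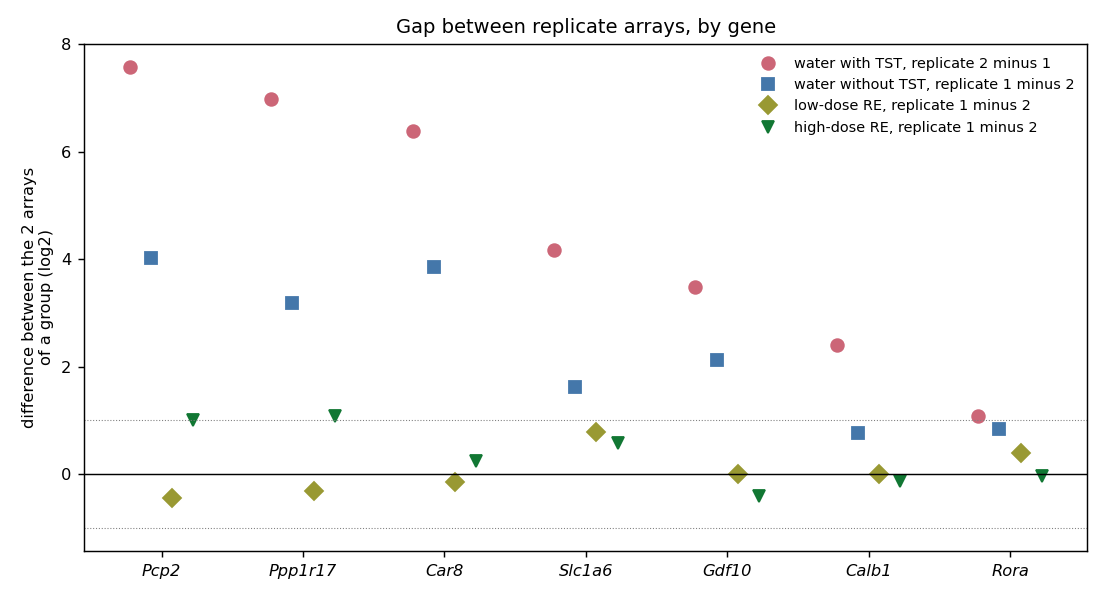
Difference between the 2 arrays of each group (vertical axis, log2) for the 7 genes, with circles for water with TST (replicate 2 minus 1), squares for water without TST (replicate 1 minus 2), and diamonds and triangles for low-dose and high-dose RE (replicate 1 minus 2). The circles fall from 7.58 for Pcp2 to 1.09 for Rora, and the RE points stay between -0.45 and 1.08.

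Other Purkinje cell genes followed in part. Of 22 measured, 17 were over 1 log2 unit higher on replicate 2 than on replicate 1 of water with TST. In water without TST, 7 were so on replicate 1 against replicate 2. Of all rows, 6.07% and 1.94% were. Arhgef33 was at 11.19 and 7.25 in water without TST and at 6.07 and 13.75 in water with TST, and between 6.19 and 6.59 on the RE arrays. Pvalb, the calcium buffer parvalbumin of Purkinje cells and many interneurons, was at 12.52 and 10.71 without and 10.79 and 14.36 with TST. Homer3, a postsynaptic scaffold linking metabotropic glutamate receptors to calcium stores, was at 9.23 and 7.82 without and 7.88 and 11.35 with TST. Rgs8, a G protein signalling regulator, was at 12.59 and 11.14 without and 10.90 and 14.39 with TST. Not every listed gene moved this way. Pcp4, a calmodulin-binding protein of Purkinje cells and several forebrain neurons, spanned 0.54 log2 units over the 8 arrays, and Foxp2 was 1.27 lower on replicate 2 of water with TST; both were picked after their values were seen.

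Bergmann glia genes other than Gdf10 varied in how far they followed. In water with TST, 12 of 14 were higher by any amount on replicate 2 than on replicate 1. The exceptions were Gria1, at 14.18 against 14.99, and Etv5, at 11.44 against 12.17. The share of all rows higher by any amount was not counted. In water with TST, 7 of 14 were over 1 log2 unit higher on replicate 2, against 6.07% of all rows. In water without TST, 1 of 14 was so on replicate 1, against 1.94% of all rows. There 1 gene, Itih3, was lower by as much, against 1.33%. A2m, a protease inhibitor gene, was at 7.34 and 7.14 in water without TST and at 6.24 and 9.74 in water with TST, a gap as wide as that of Gdf10. Gria4, an AMPA receptor subunit of Bergmann glia and many neurons, was at 13.82 and 12.59 without and 12.54 and 14.97 with TST. Timp4, a metalloproteinase inhibitor, was at 11.42 and 10.47 without and 10.39 and 12.17 with TST. Hopx, a homeodomain protein of astroglia, was at 9.26 and 8.44 without and 8.78 and 9.83 with TST. Most of these genes are also expressed by astrocytes or neurons of the forebrain.

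Most cerebellar granule cell genes, and some of cerebellar inhibitory interneurons, were high on the same 2 arrays. Granule cell genes lay on average 4.08 above their 8-array medians on water with TST replicate 2 and 2.50 on water without TST replicate 1, against -0.40 to 0.30 on the remaining 6 arrays. Gabra6, a GABA-A receptor subunit of granule cells, was at 16.37 and 14.31 on these 2 arrays and between 4.69 and 8.42 on the others. The 7 members gave 4.42, 2.57 and -0.41 to 0.22. Of the 14 granule cell genes, 12 exceeded 1 log2 unit between the arrays of water with TST and 9 between those of water without TST. Of all rows, 6.07% and 1.94% did in those directions. The interneuron genes gave means of 1.40, 0.56 and -0.36 to 0.04, and 4 and 2 of 8 exceeded 1 log2 unit, beside the same shares. Their widest gene, Tfap2b, a transcription factor, was at 10.65 and 9.14 on the 2 arrays and between 5.71 and 7.81 elsewhere. Sorcs3, picked after its values were seen, was lowest on water with TST replicate 2, at 8.84 against 9.13 to 9.70. On water with TST replicate 2 the excitatory forebrain genes were at -2.32, the striatal at -1.08, the thalamic at -1.62 and the choroid plexus genes at -1.58. On water without TST replicate 1 those 4 lists were at -0.28, 0.10, -0.79 and -0.33. The part of these marker levels in the group differences of the members was not tested.

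**Figure D3:**
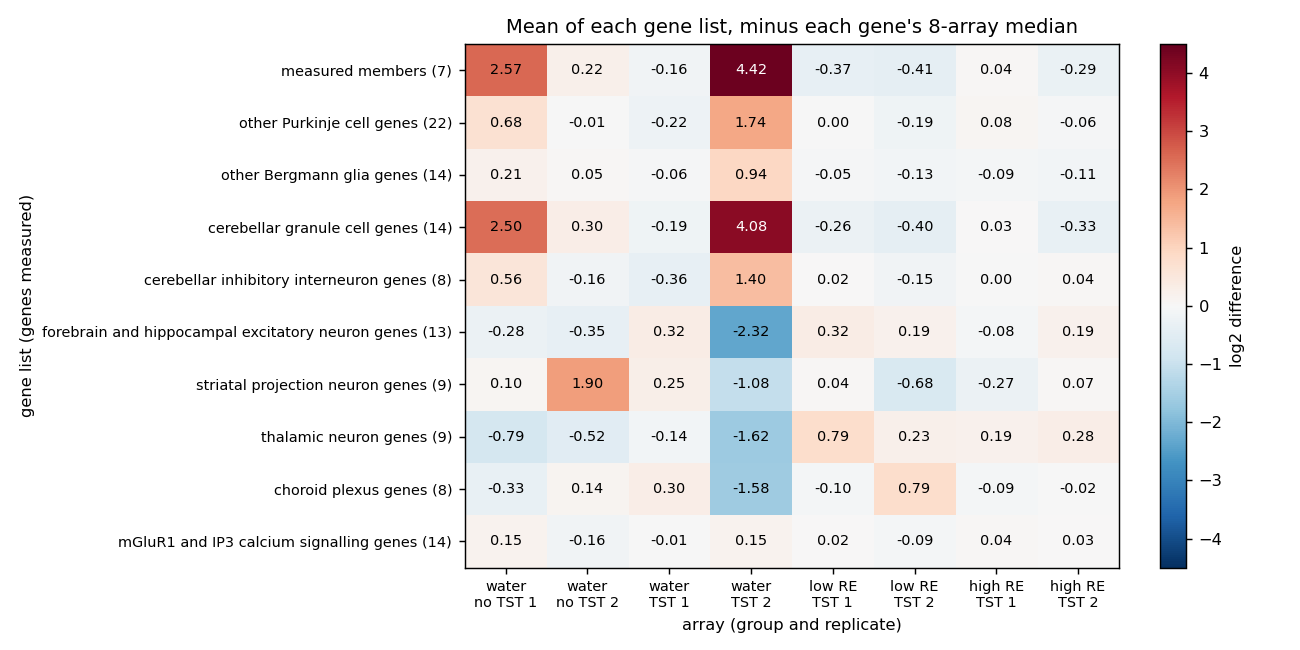
Mean of each gene list (rows, with the number of genes measured) on each array (columns), as the log2 difference from each gene's 8-array median. The members and the granule cell genes are at 4.42 and 4.08 on water with TST replicate 2 and at 2.57 and 2.50 on water without TST replicate 1, while excitatory forebrain genes are at -2.32 on the former.

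Genes of the same families as the members were more often low than high on water with TST replicate 2. Of 15 measured relatives, 1 was over 1 log2 unit higher and 8 as much lower there than on replicate 1 of the group, against 6.07% and 6.65% of all rows. The relatives of Slc1a6 were mixed: the neuronal transporter gene Slc1a1 was 1.63 and the astrocytic Slc1a2 1.25 lower there, while Slc1a3 was 0.68 and Slc1a7 0.05 higher. Rorb, a Rora relative of cortex and thalamus, was at 10.60 on that array and at 12.49 to 13.33 on the rest. Calb2, encoding the calbindin relative calretinin found in cerebellar granule cells, was the relative that was higher, at 14.19 against 11.29. S100g, another calcium binder, was at 4.82 against 5.84. Of the phosphatase inhibitors related to Ppp1r17 by function, Ppp1r1a was at 9.21 against 11.16 and the striatal Ppp1r1b at 9.99 against 11.35. Car11 was at 13.52 against 14.92 and Car10 at 12.40 against 11.58, both being inactive carbonic anhydrase relatives like Car8. Bmp3, the closest relative of Gdf10, was at 7.25 against 9.84. Gpsm1 and Gpsm2, which share the G protein-binding motif of Pcp2, were at 8.73 and 6.75 against 8.03 and 7.72. Itpr2 was at 9.66 against 10.18.

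**Figure D4:**
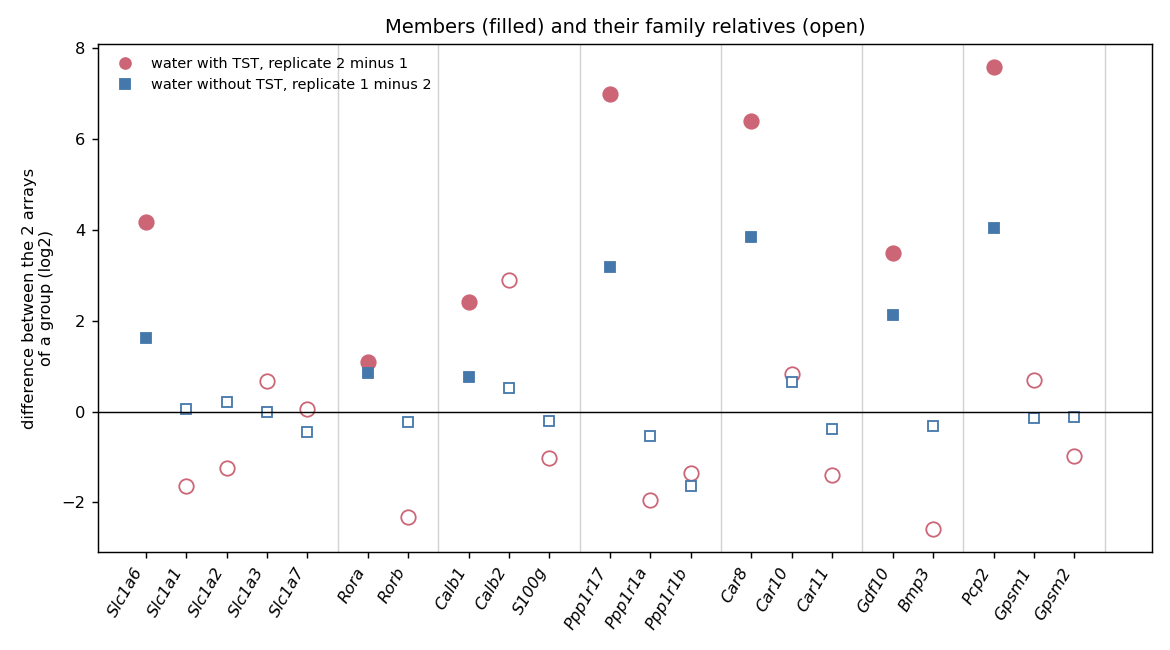
Difference between the 2 arrays of each water group (vertical axis, log2) for the 7 members (filled) and their relatives (open), with circles for water with TST (replicate 2 minus 1) and squares for water without TST (replicate 1 minus 2). All filled circles lie above 1, and among the open ones only Calb2, at 2.90, does.

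Genes acting with Itpr1 in the metabotropic glutamate and inositol trisphosphate pathway of Purkinje cells were split. Of 14 measured, 3 were over 1 log2 unit higher and 2 as much lower on replicate 2 of water with TST (6.07% and 6.65% of all rows). Besides Homer3, the phospholipase gene Plcb4 was at 14.70 against 12.32 and Plcb3 at 8.33 against 7.28. The forebrain counterparts Plcb1, at 12.82 against 14.80, and Homer1, at 12.39 against 14.62, were lower there. Of these 14, 0 passed the study's threshold in any of the 4 group comparisons, where 2.55%, 3.54%, 3.17% and 1.91% of all rows did, so a count of 0 is near that background.

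The TST effect, water with TST minus water without TST, asked what the test changed in mice given water. All 7 members had a higher mean with TST (median 0.76, against 0.005 over all rows), and 0 passed the study's threshold of a fold above 1.2 with an unadjusted p under 0.05, which 2.55% of all rows passed (1.29% upward). Pcp2 differed by 0.645 (SE 2.13), Ppp1r17 by 0.565 (SE 1.92), Car8 by 0.88 (SE 1.84) and Slc1a6 by 1.05 (SE 1.14). Gdf10 differed by 0.79 (SE 1.03), Calb1 by 0.42 (SE 0.656) and Rora by 0.76 (SE 0.41). The groups overlapped for every member, while 14.2% of all rows were higher with TST without overlap and the adjusted p by limma was 0.997 for each member. With water with TST replicate 2 left out, the difference was -3.145 for Pcp2 and -2.925 for Ppp1r17, both past the threshold, and 2 of 7 members passed where 3.29% of rows did. The direction turned in that fit for Car8 (-2.315), Slc1a6 (-1.035), Gdf10 (-0.955) and Calb1 (-0.785) too, and only Rora stayed higher with TST, at 0.215. A fit without both high water arrays leaves 1 array in each water group. Its spread within groups comes from the RE arrays alone, so it does not measure variation among water arrays. Ppp1r17 was at 4.99 on the array kept with TST and 6.32 on the array kept without TST. Both values lie below the array medians of 7.45 to 7.51. With both high water arrays left out, Pcp2 was at -1.13 (SE 0.525) and Ppp1r17 at -1.33 (SE 0.534), and only Ppp1r17 passed, where 2.72% of rows did. With water with TST replicate 1 left out, the high array stands alone for its group and all 7 passed upward, as did 16.7% of rows in either direction. Without water without TST replicate 1, Rora alone passed, at 1.185, where 2.29% of rows did. Of the list genes, Sox9, a transcription factor of astrocytes and Bergmann glia, was higher with TST by 0.715 (SE 0.253) and passed, the only one of 14 Bergmann glia genes; of 22 other Purkinje cell genes 0 did, but 18 did without water with TST replicate 1 and 2 without replicate 2. Sox9 was at 0.515 without water with TST replicate 2 and at 0.54 without water without TST replicate 1, and did not pass.

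The low-dose RE effect, low-dose RE minus water, both with TST, asked what the extract changed under the stressor. All 7 members had a lower mean with the low dose (median -2.64, against 0.015 over all rows). Calb1, at -1.61 (SE 0.656), and Slc1a6, at -2.64 (SE 1.14), passed the study's threshold downward, as did 1.61% of all rows (3.54% in either direction), and 0 members passed the adjusted test (adjusted p = 0.946 by limma for both). Pcp2 was at -4.285 (SE 2.13), Car8 at -3.57 (SE 1.84), Ppp1r17 at -3.48 (SE 1.92), Gdf10 at -1.94 (SE 1.03) and Rora at -0.12 (SE 0.41), none past the threshold. The low-dose arrays lay below both water arrays for 5 of the 7, against 11.9% of all rows. Without water with TST replicate 2, Calb1 was at -0.405, Slc1a6 at -0.555, Pcp2 at -0.495, Car8 at -0.375, Gdf10 at -0.195, Ppp1r17 at 0.01 and Rora at 0.425, and 0 passed (3.49% of rows did, and 3.04% with both high water arrays left out). Leaving out low-dose RE replicate 1 or 2, or either high-dose array, also left 0 members past the threshold, where 7.76%, 3.13% and 2.23% of rows passed. Leaving out either array of water without TST left only Calb1, where 2.54% of rows passed. Without water with TST replicate 1, 6 of 7 passed, all but Rora, where 17.0% of rows did. Among the list genes Slc1a3, the glutamate transporter of Bergmann glia and astrocytes, passed at -0.865 (SE 0.272) and Sox9 at -0.595 (SE 0.253), while Clmn, the only other Purkinje cell gene to pass, was higher by 0.73 (SE 0.3), as were 1.94% of all rows. Rorb was higher by 1.515 (SE 0.612) and passed. Without water with TST replicate 2 these 4 were at -0.525, -0.395, 0.335 and 0.355, in the order Slc1a3, Sox9, Clmn and Rorb, and none passed. Slc1a3 also lost its call without low-dose RE replicate 2 (-0.76), Clmn kept its call without water with TST replicate 1 or low-dose RE replicate 2 only, and Sox9 and Rorb kept theirs only with water with TST replicate 1 left out. Without that array 20 of the 22 other Purkinje cell genes and 11 of the 14 Bergmann glia genes passed.

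The high-dose RE effect was taken against the same water arrays with TST. The high dose had a lower mean for all 7 members (median -2.335, against 0.01 over all rows), and 0 of 7 passed the threshold, where 3.17% of rows did. These 2 comparisons share their control arrays, so their likeness is not independent. Pcp2 was at -3.36 (SE 2.13), Car8 at -3.26 (SE 1.84), Ppp1r17 at -2.79 (SE 1.92), Slc1a6 at -2.335 (SE 1.14), Gdf10 at -2.02 (SE 1.03), Calb1 at -1.485 (SE 0.656) and Rora at -0.515 (SE 0.41). The groups did not overlap for Gdf10 and Calb1 only, against 15.2% of rows that were lower without overlap. Without water with TST replicate 2, Pcp2 was at 0.43 and Ppp1r17 at 0.70, the other 5 lay between -0.28 and 0.03, and 0 passed, where 3.09% of rows did. Without water with TST replicate 1, all 7 passed, where 17.0% of rows did. Clmn was the only one of 22 other Purkinje cell genes past the threshold, higher by 0.765 (SE 0.3), as were 1.67% of all rows; its call was lost without water with TST replicate 2 (0.37) and without either high-dose array (0.835 and 0.695). With water with TST replicate 1 left out, 19 of those 22 genes passed.

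The dose difference, high minus low dose, takes its means from no water array, but its SE includes the spread of the water arrays. Pcp2 was higher by 0.925 (SE 2.13), Ppp1r17 by 0.69 (SE 1.92), Car8 by 0.31 (SE 1.84), Slc1a6 by 0.305 (SE 1.14) and Calb1 by 0.125 (SE 0.656) with the high dose. Gdf10 was at -0.08 (SE 1.03) and Rora at -0.395 (SE 0.41), and 0 of 7 passed the threshold, where 1.91% of rows did. For Pcp2 the SD was 2.85 and 5.36 in the water groups and 0.318 and 0.707 in the RE groups, and 1 spread is shared. In the fit of the 4 RE arrays alone, the SE for Pcp2 was 0.371 and it passed the threshold, as 1 of 7 members where 2.39% of rows did. The fit without both high water arrays takes its spread from the same 4 arrays. It therefore repeats this result and adds no support. Groups did not overlap for Pcp2, Car8 and Calb1, which were higher, and for Rora, which was lower, against 12.9% and 13.7% of all rows in those directions.

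**Figure D5:**
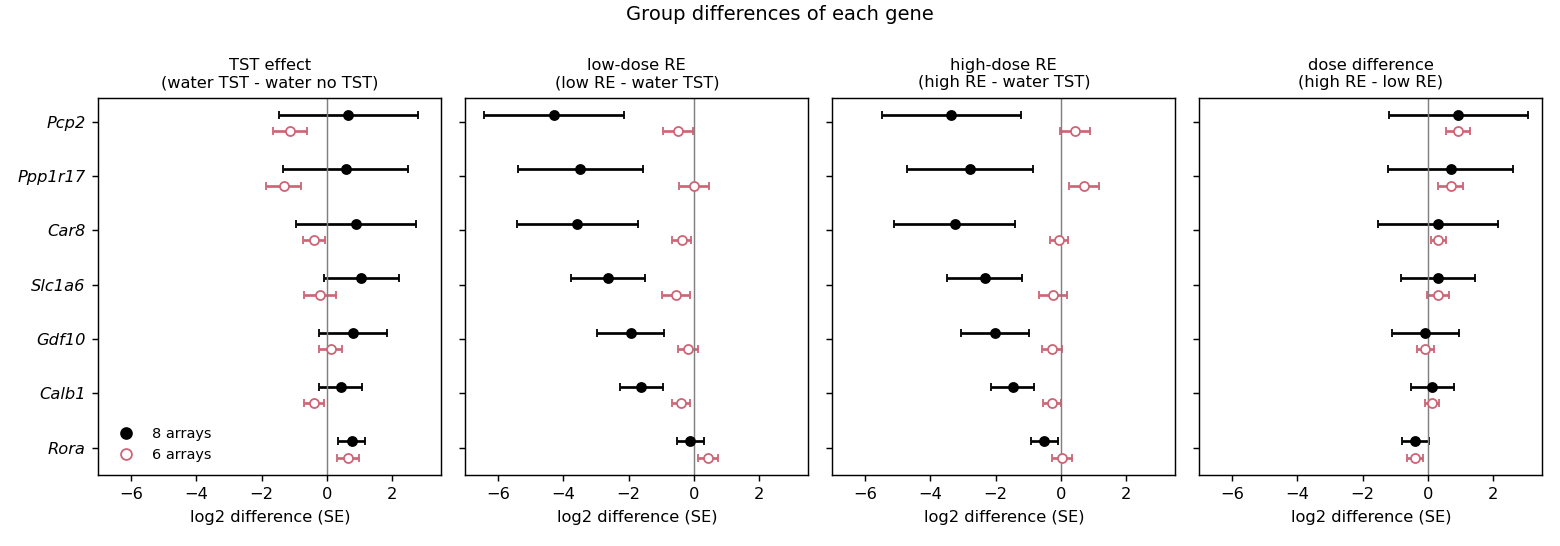
Log2 difference between groups (horizontal axis) with its SE for each gene in the 4 comparisons, from the fit of all 8 arrays (filled) and from the fit that leaves out both high water arrays (open, 6 arrays). For Pcp2 the low-dose RE effect goes from -4.285 to -0.495 and the TST effect from 0.645 to -1.13. The open points keep 1 array in each water group, so their spread within groups comes from the RE arrays alone.

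Set against water without TST, the 4 RE arrays lay below both water arrays for 5 of the 7 members, Pcp2, Ppp1r17, Car8, Slc1a6 and Calb1, and this held for 6.21% of all rows. The margin to the lower water array was small for Ppp1r17 (6.23 against 6.32) and Slc1a6 (7.68 against 7.86). Water without TST replicate 2 was also high in striatal genes, at 1.90 above their medians. These values come from a comparison for which no test was set.

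The genes closest to each member over the 8 arrays were ranked by the root mean square difference of values centred on each gene's mean, among 17082 named genes. The measure rests largely on the 2 high arrays. For Pcp2 the nearest were Arhgef33 at 0.365 log2 units, Ppp1r17 at 0.425, Car8 at 0.504 and Cbln1, a synaptic organiser secreted by granule cells, at 0.505. Fat2, Cbln3, Crtam, En2, Chn2 and Zic2 followed between 0.565 and 1.14. With both high arrays left out, 1 of these 10 was still among the nearest 10. For Car8 the nearest gene was Cbln1 at 0.183, closer than Ppp1r17 at 0.358, and Cbln1 was also nearest to Ppp1r17 at 0.345. Slc1a6 had Zfp521, Il20rb and Zic2 nearest, at 0.288 to 0.330. Gdf10 had Meis1, Nrep and Kcnk10 at 0.152 to 0.206, and it was closer to Slc1a6 (0.454) than to any other member. Calb1 had Shisa8, Usp3 and Ackr1 at 0.135 to 0.201. Rora had Dock9, Rcor3 and Pm20d2 at 0.141 to 0.148, and none of the 50 genes nearest to it was on a cerebellar list. Of 14 measured granule cell genes and 22 other Purkinje cell genes, 8 and 4 were among the 50 nearest to Pcp2, and 4 and 3 to Gdf10. The 50 were drawn from the 17082 genes. Both lists were high on average on the 2 high arrays, so these counts add nothing to those levels. No forebrain, striatal, thalamic or choroid plexus list gene was among the 50 nearest of any member. Those lists hold only 13, 9, 9 and 8 measured genes. They were low on average on water with TST replicate 2, where every member was highest, so their absence adds nothing to those levels.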

How the data were processed

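RNA of the labelled brain tissue was hybridised to Clariom S arrays, 1 per RNA sample. Per the series' design text, the authors normalized the arrays with the robust multichip average in Transcriptome Analysis Console 4.0.1; the deposited log2 values, with 2 decimals, were used unchanged. Array medians lay between 7.45 and 7.51. The platform annotation named 19572 of 22206 rows. No probe coordinates are given because no build of the array is given in the sources used here.

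Group means were fitted to all 8 arrays with limma 3.58.1 in R 4.3.3 (lmFit, eBayes; 4 residual and 4.3 prior degrees of freedom). Tests were two-sided, and p-values were adjusted across the whole table by Benjamini-Hochberg, where 0 rows passed an adjusted p of 0.05 in any comparison (567, 787, 705 and 425 had an unadjusted p under 0.05 in the order of the report). The median SE of a difference was 0.292. The script was tested on simulated data. Named genes were the members, all their measured relatives, up to 4 genes of widest range per list, and the nearest genes by profile, leaving out predicted loci, sensory receptors and small RNAs; list genes past the threshold were added. Members, lists and tests were chosen with earlier results of these data known. Lists were not tested as sets. The fit without both high water arrays was added after seeing the data. The number of arrays limits the precision.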

Additional observations from a re-analysis of the deposited data

How the results depend on the processing

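Results were recomputed with a replicate block, a fit of the compared groups alone, a trended robust variance prior, quantile normalization, removal of the dimmest 25% of rows, the mean of all rows of a gene, the methods' one-way analysis of variance, leaving out each array, and, added after seeing the data, leaving out both high water arrays. Apart from the fits that leave out arrays, no member changed direction in any comparison. The replicate block, the compared groups alone, the variance prior, the row filter and the analysis of variance keep each difference by design. With 2 arrays in every group, they could not turn a direction. Only quantile normalization and, for Rora, the mean of all rows could. A group left with 1 array is assumed to vary like the others.

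The low-dose RE count of 2 members past the threshold was 1 with the replicate block and 1 without the dimmest rows, and 0 with only the groups compared, with the trend and robust prior and with the analysis of variance. The replicate block took Slc1a6 out of the calls (-2.64, p = 0.0623 by limma) and changed no other call of a member; the same numbers did not pair the samples, with correlations of their deviations between -0.293 and 0.169. The dose difference count was 1 with only the groups compared. For that comparison, the fit without both high water arrays is the same fit. Leaving out 1 array gave 0 to 7 members past the threshold for the TST effect, 0 to 6 for low-dose RE, 0 to 7 for high-dose RE and 0 to 0 for the dose difference. Leaving out both high water arrays gave 1, 0, 0 and 1.

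With 1 array left out, the TST effect ran from -3.145 to 4.435 for Pcp2, -2.925 to 4.055 for Ppp1r17, -2.315 to 4.075 for Car8, -1.035 to 3.135 for Slc1a6, -0.955 to 2.535 for Gdf10 and -0.785 to 1.625 for Calb1. The low-dose effect ran from -6.97 to 0.01 for Ppp1r17 and -0.665 to 0.425 for Rora. The high-dose effect ran from -7.15 to 0.43 for Pcp2, -6.28 to 0.70 for Ppp1r17 and -1.06 to 0.03 for Rora. The dose difference ran from -0.09 to 0.70 for Slc1a6 and -0.285 to 0.125 for Gdf10. Without both high water arrays the TST effect also turned for Car8 (-0.39), Slc1a6 (-0.22) and Calb1 (-0.40), with Pcp2 at -1.13 and Ppp1r17 at -1.33; the low-dose effect was 0.01 for Ppp1r17 and 0.425 for Rora, and the high-dose effect 0.43 for Pcp2, 0.70 for Ppp1r17 and 0.03 for Rora.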
